A study of Mus musculus with 11 samples.

Results

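The genes described here are 39 mouse genes of the Fanconi anaemia and homologous recombination pathways and of the ATR checkpoint that works with them, chosen by name for their membership in these pathways, with earlier results of these data known. All 39 were found among the 49585 rows of the deposited table, and 38 of them were among the 13448 genes with enough reads to be tested. They were followed in hematopoietic stem cells of C57BL/6 mice, sorted from bone marrow as Lin- c-Kit+ Sca-1+ CD48- CD150+ cells and divided by CD41, a platelet integrin chain that marks platelet-biased stem cells. The 4 groups were CD41+ cells taken 24 h after platelet depletion (n = 3), CD41+ cells of control mice given rabbit serum (n = 2), CD41- cells taken 24 h after depletion (n = 3) and CD41- cells of control mice (n = 3). The labels name no transgene or mutation; no age is given in the labels. Each of the 11 libraries held RNA of 1000 cells from 3 pooled mice and was called a biological replicate in the design, so n counts pools and not single mice. The design addresses how CD41+ and CD41- stem cells differ in control mice and after platelets have been removed.

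The Fanconi anaemia pathway repairs DNA interstrand crosslinks. Its core complex, through the ubiquitin ligase FANCL and the E2 enzyme UBE2T, attaches ubiquitin to the FANCI-FANCD2 pair, nucleases then cut the crosslinked strand, and homologous recombination rebuilds the broken chromosome with BRCA1, BRCA2 and their partners. Inherited loss of the pathway is best known for bone marrow failure, in which the stem cell pool is lost, and many of its genes are transcribed mainly in S and G2 phase.

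The libraries held between 0.974 M and 9.95 M counts (M, a count of 1e6), with a median of 3.88 M, and the library of depleted CD41+ replicate 1 was the shallowest and stood apart for several members named below. Levels are in CPM, counts scaled to library size by the TMM method. In CPM, 3 counts equal 0.302 in the deepest library and 3.08 in the shallowest before TMM scaling. Itga2b, which encodes CD41, averaged 212 ± 38.4 CPM in depleted CD41+ cells, 389 ± 49.9 CPM in control CD41+ cells, 42.2 ± 4.08 CPM in depleted CD41- cells, against 69.0 ± 26.8 CPM in control CD41- cells (SD), higher in CD41+ cells as the sort requires. All 11 sort and stem cell markers were detected, among them Cd48, whose protein the sort excludes, at 62.5 ± 37.5 CPM in depleted CD41+ cells, 39.9 ± 20.5 CPM in control CD41+ cells, 42.2 ± 13.6 CPM in depleted CD41- cells, against 25.7 ± 13.8 CPM in control CD41- cells. Of the 39 genes, 20 share exon bases with another annotated gene. Neither the labels nor the processing notes state the strand setting, so reads of opposite genes cannot be told apart. Among the members concerned are Rad54l (1184 bases shared with Lrrc41), Fanci (921 with Polg), Fanca (920 with Zfp276), Fancl (462 with Vrk2), Rmi1 (330 with Hnrnpk) and Eme1 (221 with Lrrc59). Others are Fancc (1373 with Gm16133), Atr (726 with 1700065D16Rik), Rbbp8 (402 with AC090479.2), Fancd2 (257 with Fancd2os), Fancf (253 with Gas2) and Brca2 (41 with Gm42529).

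The genes as a group were lowest in CD41- cells of control mice. Their summed level was 1294, 1432 and 1284 CPM in depleted CD41+ cells, 1272 and 1148 CPM in CD41+ cells of control mice, 1342, 1319 and 1318 CPM in depleted CD41- cells, and 877, 786 and 714 CPM in control CD41- cells. No control CD41- library reached the lowest library of any other group, and the other 3 groups lay close together. The mean was 1327 ± 13.7 CPM in depleted CD41- cells against 792 ± 81.6 CPM in control CD41- cells (SD, n = 3 each), and in the CD41+ fraction it was 1336 ± 83.0 CPM in depleted cells (n = 3) against 1210 ± 87.6 CPM in control cells (n = 2). Control CD41- cells had the lowest of the 4 group means for 26 of the 38 tested members, control CD41+ cells for 8, depleted CD41+ cells for 4 and depleted CD41- cells for 0. In bulk RNA, fewer cells that express a gene and less RNA of it per cell cannot be told apart.

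**Figure D1:**
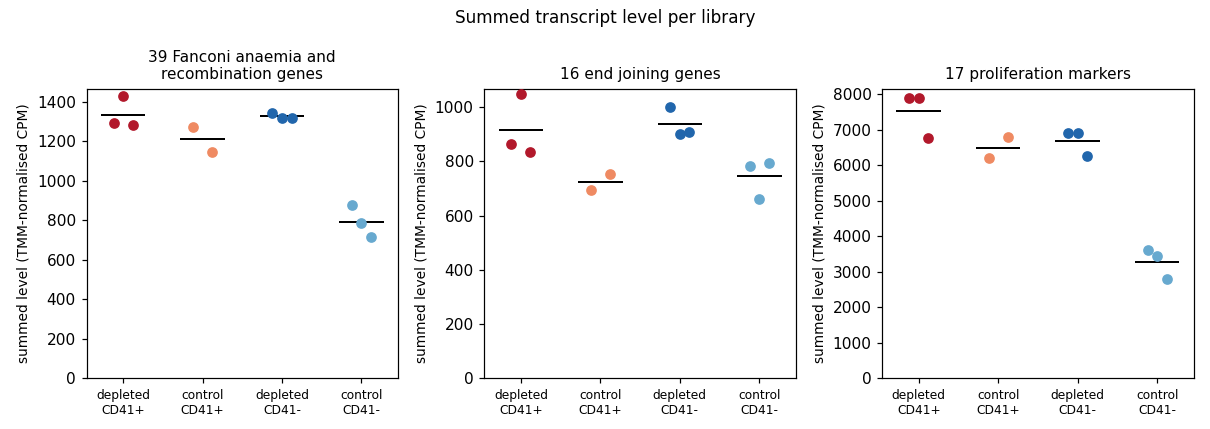
Summed level of the gene lists in each library, in CPM, with one point per library and a bar at each group mean, for the 39 Fanconi anaemia and recombination genes, 16 end joining genes and 17 proliferation markers. The 3 control CD41- libraries (714 to 877 CPM) lie below the 8 others (1148 to 1432 CPM) for the 39 genes.

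Levels between genes were compared per kilobase of exon. Fancl was highest at 18.5 CPM per kb, followed by Chek1 at 15.6, Rad54l at 15.3, Rad51d at 14.4 and Eme1 at 13.3 CPM per kb. The lowest were Atrip at 0.132, Fancm at 0.335, Fan1 at 0.408 and Slx4 at 0.662 CPM per kb. The mean level of the members, not divided by length, spanned 0.944 to 118 CPM with a median of 24.5 CPM.

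Among the core complex genes, Ube2t, whose E2 enzyme passes ubiquitin to FANCD2, had 55.6, 56.8 and 53.0 CPM in depleted CD41+ cells, 49.2 and 43.3 CPM in CD41+ cells of control mice, 44.1, 48.4 and 58.9 CPM in depleted CD41- cells, and 29.7, 33.8 and 24.3 CPM in control CD41- cells. Every depleted library was above every control library of its own fraction. The log2 fold change of depleted over control CD41- cells was 0.78 ± 0.21 (SE), with an adjusted p of 0.064 in edgeR's quasi-likelihood test, which does not pass the threshold of 0.05. Fancl, the catalytic ubiquitin ligase of the complex, had 81.2, 53.1 and 65.8 CPM in depleted CD41+ cells, 63.9 and 54.4 CPM in CD41+ cells of control mice, 77.9, 62.0 and 73.5 CPM in depleted CD41- cells, and 63.3, 42.9 and 49.9 CPM in control CD41- cells. These groups overlapped, and depleted over control CD41- cells gave a log2 fold change of 0.45 ± 0.21 (adjusted p = 0.301).

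Fancg, a scaffold subunit of the core complex, followed the fraction more than the treatment. It had 45.6, 32.7 and 31.2 CPM in depleted CD41+ cells, 43.3 and 51.1 CPM in CD41+ cells of control mice, 30.4, 31.0 and 27.0 CPM in depleted CD41- cells, and 23.9, 28.8 and 27.2 CPM in control CD41- cells. All CD41+ libraries were above all CD41- libraries. The log2 fold change of CD41+ over CD41- cells, averaged over both treatments, was 0.55 ± 0.17 with an edgeR adjusted p of 0.0801. The other core subunits behaved unevenly. Fanca averaged 28.6 ± 3.07 CPM in depleted CD41- cells against 14.4 ± 0.953 CPM in control CD41- cells, with no overlap and an edgeR adjusted p of 0.062. Fancb, Fancc and Fance had group means between 14.2 and 33.3 CPM and did not pass in edgeR or DESeq2. Fancf lay between 1.11 and 2.62 CPM in depleted CD41+ cells and between 5.34 and 6.71 CPM in control CD41+ cells (edgeR adjusted p = 0.359), and Fancm, the DNA translocase that anchors the complex, was at 0 in 1 control CD41+ and 1 control CD41- library and did not exceed 7.33 CPM in any library.

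Fancd2, the ubiquitinated target of the core complex, had the largest depletion response of the members that passed the test. It had 11.1, 37.8 and 20.7 CPM in depleted CD41+ cells, 22.4 and 13.7 CPM in CD41+ cells of control mice, 36.1, 33.1 and 30.3 CPM in depleted CD41- cells, and 5.23, 7.07 and 5.11 CPM in control CD41- cells. The CD41- libraries were far apart by treatment, whereas the CD41+ libraries overlapped. In CD41- cells it rose 5.7-fold after depletion (log2 2.51 ± 0.40, adjusted p = 0.00346 with edgeR). In CD41+ cells its log2 fold change was 0.43 ± 0.42 (adjusted p = 0.733). The difference between these responses was -2.08 ± 0.57 on the log2 scale, with an unadjusted p of 0.00267 and an edgeR adjusted p of 0.445, so it did not pass. Averaged over both fractions Fancd2 rose by log2 1.47 ± 0.30 (adjusted p = 0.0108), a call lost without control CD41+ replicate 2 (edgeR adjusted p = 0.0591).

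Fanci, the partner of FANCD2, had 7.79, 65.5 and 51.0 CPM in depleted CD41+ cells, 42.8 and 48.2 CPM in CD41+ cells of control mice, 62.6, 66.4 and 74.0 CPM in depleted CD41- cells, and 31.9, 22.0 and 40.6 CPM in control CD41- cells. The value of 7.79 CPM came from the shallowest library and rested on 7 counts. Depleted and control CD41- libraries did not overlap, and the log2 fold change of 1.10 ± 0.44 did not pass (edgeR adjusted p = 0.222). Usp1, the deubiquitinase that removes ubiquitin from FANCD2, had overlapping groups with means of 47.7 ± 18.8 CPM in depleted CD41+ cells, 31.8 ± 9.88 CPM in control CD41+ cells, 60.9 ± 18.1 CPM in depleted CD41- cells, against 33.5 ± 14.6 CPM in control CD41- cells.

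Of the BRCA proteins and partners, Brip1, a helicase that binds BRCA1 and is also known as FANCJ, had 31.1, 40.0 and 46.9 CPM in depleted CD41+ cells, 50.0 and 37.9 CPM in CD41+ cells of control mice, 43.4, 50.9 and 30.0 CPM in depleted CD41- cells, and 19.3, 12.6 and 10.5 CPM in control CD41- cells. The control CD41- libraries were the lowest and the other 3 groups overlapped. In control mice Brip1 was 3.12-fold higher in CD41+ than in CD41- cells (log2 1.64 ± 0.33, edgeR adjusted p = 0.0192). This call was lost without control CD41+ replicate 1 (edgeR adjusted p = 0.0993), control CD41+ replicate 2 (0.0698) or control CD41- replicate 3 (0.068), and when only the groups compared were fitted (0.0736). In CD41- cells Brip1 rose 2.95-fold after depletion (log2 1.56 ± 0.30, edgeR adjusted p = 0.0112), which was lost without control CD41- replicate 3 (0.0557), depleted CD41- replicate 1 (0.0519) or depleted CD41- replicate 2 (0.0513).

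Brca2, a central mediator of homologous recombination, followed the treatment in both fractions. It had 20.0, 20.2 and 25.3 CPM in depleted CD41+ cells, 7.48 and 8.26 CPM in CD41+ cells of control mice, 30.7, 26.2 and 27.7 CPM in depleted CD41- cells, and 15.1, 8.38 and 15.8 CPM in control CD41- cells. All 6 depleted libraries were above all 5 control libraries. The log2 fold change was 1.48 ± 0.37 in CD41+ cells (edgeR adjusted p = 0.156) and 1.10 ± 0.31 in CD41- cells (0.0693). Averaged over both fractions it rose 2.45-fold (log2 1.29 ± 0.24, edgeR adjusted p = 0.00719). Brca2 was lower in CD41+ than in CD41- cells in each treatment, and neither difference passed the test. This direction was unlike most members in control mice, where 29 were positive and 9 negative. In depleted mice 17 members were positive and 21 negative. The fractions did not overlap, but only narrowly, with nearest libraries at 8.26 and 8.38 CPM in control mice. In depleted mice the nearest were at 25.3 and 26.2 CPM.

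The other BRCA partners did not pass in edgeR in any comparison, whereas DESeq2 called Brca1 higher after depletion in CD41- cells and on average over both fractions, as did edgeR with no filter on low counts or without depleted CD41+ replicate 1. Brca1 had 5.56, 23.9 and 23.9 CPM in depleted CD41+ cells, 11.5 and 8.77 CPM in CD41+ cells of control mice, 32.4, 24.3 and 20.3 CPM in depleted CD41- cells, and 7.98, 8.64 and 13.9 CPM in control CD41- cells. Its low value of 5.56 CPM rested on 5 counts of the shallowest library, and its average response was log2 1.12 ± 0.33 (edgeR adjusted p = 0.0595). Bard1, the ubiquitin ligase partner of BRCA1, lay between 0.275 and 7.79 CPM over the libraries and averaged 3.87 ± 2.47 CPM in depleted CD41- cells against 1.18 ± 0.843 CPM in control CD41- cells. Palb2, which joins BRCA1 to BRCA2, varied within groups: in control CD41- cells alone it had 16.5, 9.42 and 0.486 CPM.

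Rad51ap1, which promotes strand pairing, had 93.4, 55.3 and 52.7 CPM in depleted CD41+ cells, 51.8 and 47.7 CPM in CD41+ cells of control mice, 74.7, 57.2 and 57.7 CPM in depleted CD41- cells, and 23.9, 26.4 and 14.6 CPM in control CD41- cells. The depleted libraries were above the control libraries in each fraction, narrowly in CD41+ cells. In CD41- cells it rose 2.93-fold (log2 1.55 ± 0.28, edgeR adjusted p = 0.00712), against log2 0.40 ± 0.31 in CD41+ cells (0.637). Over both fractions it rose by log2 0.97 ± 0.21 (edgeR adjusted p = 0.0154), and this was lost without control CD41+ replicate 1 (0.0616) or replicate 2 (0.0631). In control mice CD41+ cells were above CD41- cells by log2 1.20 ± 0.30, with an edgeR adjusted p of 0.0518 that does not pass.

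Rad54l, a DNA translocase that acts during strand invasion, had the highest mean level of the members. It had 149, 141 and 134 CPM in depleted CD41+ cells, 155 and 117 CPM in CD41+ cells of control mice, 109.8, 112 and 116 CPM in depleted CD41- cells, and 93.8, 83.5 and 64.9 CPM in control CD41- cells. CD41+ libraries were above CD41- libraries in each treatment. Averaged over both treatments it was 1.45-fold higher in CD41+ cells (log2 0.54 ± 0.13, edgeR adjusted p = 0.0281). The call was lost without control CD41+ replicate 1 (0.111), control CD41- replicate 3 (0.0537), or depleted CD41- replicate 1 (0.0665), 2 (0.0623) or 3 (0.0543), and with library size as the only scaling (0.069).

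The paralog genes Rad51b, Rad51c, Rad51d, Xrcc2 and Xrcc3, whose proteins assist strand exchange, differed in level and pattern. Rad51c averaged 8.24 ± 3.91 CPM in depleted CD41+ cells, 8.21 ± 5.18 CPM in control CD41+ cells, 7.72 ± 0.955 CPM in depleted CD41- cells, against 1.77 ± 1.23 CPM in control CD41- cells, and its response in CD41- cells (log2 2.10 ± 0.61) had an edgeR adjusted p of 0.0868. Rad51d averaged 50.4 ± 7.46 CPM in depleted CD41+ cells, 52.3 ± 4.09 CPM in control CD41+ cells, 50.8 ± 16.1 CPM in depleted CD41- cells, against 60.8 ± 6.34 CPM in control CD41- cells, with no dip in the last group. Xrcc2 was highest in control CD41+ cells, at 65.2 and 68.4 CPM, against 35.2, 39.8 and 30.4 CPM in control CD41- cells (log2 0.93 ± 0.26, edgeR adjusted p = 0.0731). Xrcc3 averaged 36.2 ± 15.0 CPM in control CD41+ cells against 19.8 ± 6.30 CPM in control CD41- cells, and Rad51b stayed between 0.973 and 11.1 CPM. Rad54b, a relative of Rad54l, averaged 18.7 ± 5.33 CPM in depleted CD41- cells against 9.38 ± 1.81 CPM in control CD41- cells (edgeR adjusted p = 0.139). Rad54b shares 2068 exon bases on the same strand with Fsbp, so its count is uncertain.

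Exo1, the nuclease that extends resected DNA ends, passed in most comparisons. It had 93.4, 102.5 and 81.3 CPM in depleted CD41+ cells, 75.6 and 68.9 CPM in CD41+ cells of control mice, 82.6, 67.9 and 54.2 CPM in depleted CD41- cells, and 30.3, 25.1 and 19.2 CPM in control CD41- cells. Control CD41- libraries were lowest by a wide gap, and in CD41+ cells the depleted libraries were just above the control libraries. In control mice it was 2.91-fold higher in CD41+ than in CD41- cells (log2 1.54 ± 0.24, edgeR adjusted p = 0.00562). In CD41- cells it rose 2.75-fold after depletion (log2 1.46 ± 0.22, edgeR adjusted p = 0.00269), against log2 0.36 ± 0.24 in CD41+ cells (0.587). The difference between the responses was log2 -1.11 ± 0.33 (unadjusted p = 0.00447, edgeR adjusted p = 0.489).

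Rbbp8 encodes CtIP, which starts end resection with the MRN complex. It had 66.7, 72.5 and 70.5 CPM in depleted CD41+ cells, 27.5 and 36.9 CPM in CD41+ cells of control mice, 63.8, 59.1 and 57.9 CPM in depleted CD41- cells, and 29.7, 21.2 and 15.8 CPM in control CD41- cells. Every depleted library of either fraction was above every control library. It rose 2.71-fold in CD41- cells (log2 1.44 ± 0.24, edgeR adjusted p = 0.00503). In CD41+ cells the log2 fold change of 1.12 ± 0.28 did not pass (0.156), and the difference between the responses was log2 -0.32 ± 0.36. Averaged over both fractions it rose 2.43-fold (log2 1.28 ± 0.18, edgeR adjusted p = 0.00173).

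Blm, Top3a, Rmi1 and Rmi2 encode the complex that separates joined recombination intermediates, and none of them passed in edgeR. DESeq2, and edgeR with no filter on low counts, called Top3a higher in CD41+ than in CD41- cells of control mice. Top3a averaged 28.8 ± 9.40 CPM in depleted CD41+ cells, 38.0 ± 3.14 CPM in control CD41+ cells, 30.5 ± 2.75 CPM in depleted CD41- cells, against 15.3 ± 6.77 CPM in control CD41- cells. Its CD41- groups did not overlap (log2 0.99 ± 0.35, edgeR adjusted p = 0.152). Blm, with group means of 17.5 to 25.9 CPM, and Rmi2, with 8.45 to 11.7 CPM, had overlapping groups in every comparison. Rmi1 averaged 23.2 ± 0.388 CPM in control CD41+ cells against 13.6 ± 4.35 CPM in control CD41- cells.

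Eme1, the partner that activates the junction-cutting nuclease MUS81, followed the treatment and, in control mice, also the fraction. It had 44.5, 46.6 and 53.6 CPM in depleted CD41+ cells, 29.9 and 33.3 CPM in CD41+ cells of control mice, 45.0, 48.2 and 51.3 CPM in depleted CD41- cells, and 18.4, 19.6 and 19.7 CPM in control CD41- cells. Replicates were close, and depleted libraries were above control libraries in both fractions. In control mice the CD41+ libraries were above all CD41- libraries, a difference called by DESeq2 but not by edgeR. In CD41- cells it rose 2.5-fold (log2 1.32 ± 0.21, edgeR adjusted p = 0.0034), in CD41+ cells the log2 fold change was 0.62 ± 0.24 (0.321), and averaged over both it rose by log2 0.97 ± 0.16 (0.00361). Mus81 itself averaged 26.5 ± 6.21 CPM in depleted CD41- cells, against 18.3 ± 6.39 CPM in control CD41- cells, with overlap. Slx4, the scaffold on which these nucleases assemble, lay between 0 and 14.3 CPM. Fan1, a nuclease recruited by ubiquitinated FANCD2, lay between 0.236 and 4.01 CPM. Counts of these genes were low, and those of Slx4 were also uneven, at 19, 10 and 59 in control CD41- cells. A modest difference could therefore be missed.

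In the ATR checkpoint, which arrests cells with stalled forks, Chek1, the effector kinase, had 127, 83.3 and 73.1 CPM in depleted CD41+ cells, 99.7 and 69.7 CPM in CD41+ cells of control mice, 85.0, 66.4 and 67.4 CPM in depleted CD41- cells, and 47.6, 42.7 and 22.9 CPM in control CD41- cells. The control CD41- libraries were again below all others. The log2 fold change was 1.17 ± 0.31 for CD41+ over CD41- cells of control mice (edgeR adjusted p = 0.0611). It was 0.96 ± 0.28 for depleted over control CD41- cells (edgeR adjusted p = 0.0882). Neither passed in edgeR, whereas DESeq2 called both higher. Topbp1, the activator of ATR, had 25.6, 49.8 and 63.8 CPM in depleted CD41+ cells, 35.8 and 26.3 CPM in CD41+ cells of control mice, 43.9, 49.2 and 66.0 CPM in depleted CD41- cells, and 39.6, 29.1 and 30.2 CPM in control CD41- cells. Its response averaged over both fractions was log2 0.65 ± 0.23 (edgeR adjusted p = 0.107). DESeq2 called this response, as did edgeR with no filter on low counts or without depleted CD41+ replicate 1.

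Atr, the kinase itself, ran the other way between fractions. It had 17.8, 12.5 and 9.03 CPM in depleted CD41+ cells, 11.5 and 10.3 CPM in CD41+ cells of control mice, 24.9, 22.8 and 23.6 CPM in depleted CD41- cells, and 13.2, 20.2 and 21.2 CPM in control CD41- cells. CD41+ libraries were below CD41- libraries in each treatment. The average log2 fold change was -0.83 ± 0.25 with an edgeR adjusted p of 0.0666, which passed as lower with DESeq2 and with library size as the only scaling. Atrip, the partner that brings ATR to single-stranded DNA, was not tested because it had 43 counts over all 11 libraries, with 2 libraries at 0. It shares 1147 exon bases on the same strand with Trex1.

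**Figure D2:**
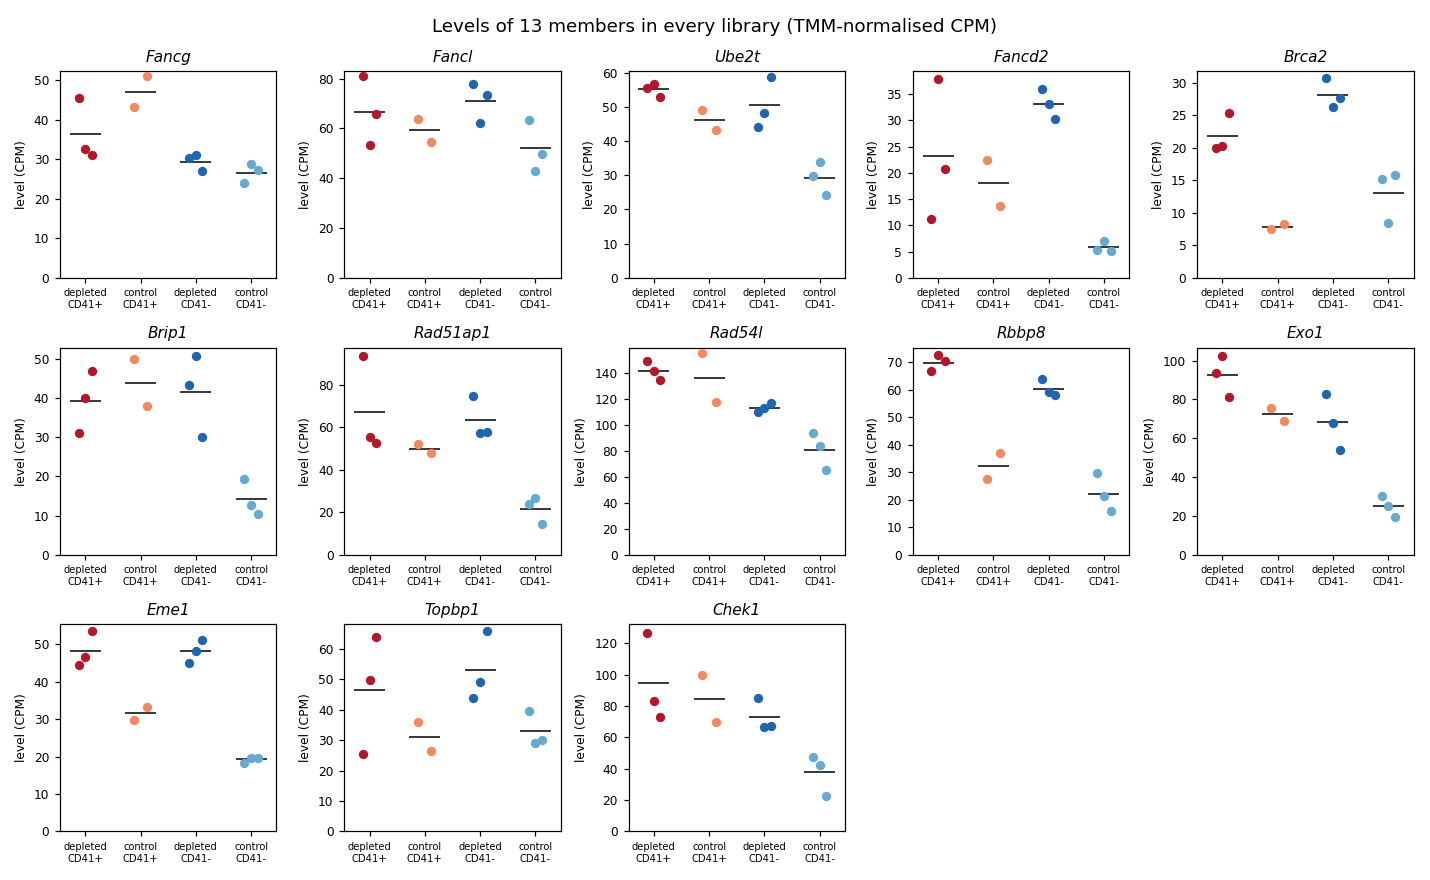
Level of the 13 named members in each library, in CPM, 1 panel per gene and 1 point per library, with a bar at each group mean; the scale differs between panels. Exo1, Brip1 and Rad51ap1 are low in control CD41- cells, whereas Rbbp8 and Brca2 are low in control cells of both fractions. For Eme1 the control CD41+ libraries lie between the control CD41- and the depleted libraries.

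Promoter sequences were taken from RefSeq (GRCm38.p6) as the 250 bases before the annotated start, which 30 of the 39 members had; Xrcc2, Rad54b, Rbbp8, Rmi2, Fancd2, Rad51d, Top3a, Usp1 and Exo1 had no entry. Those of Brip1, Rad51ap1, Rad54l and Chek1 are shown because, among members with an entry, they had the lowest p for CD41+ over CD41- cells of control mice. All are on the minus strand of the genome and are printed 5′ to 3′ in the direction of the gene, with matches to the CCAAT box in capitals (CCAAT, or ATTGG where it lies on the other strand). They lie at chr11:86201194-86201443, chr6:126939588-126939837, chr4:116123691-116123940 and chr9:36726659-36726908.
Brip1: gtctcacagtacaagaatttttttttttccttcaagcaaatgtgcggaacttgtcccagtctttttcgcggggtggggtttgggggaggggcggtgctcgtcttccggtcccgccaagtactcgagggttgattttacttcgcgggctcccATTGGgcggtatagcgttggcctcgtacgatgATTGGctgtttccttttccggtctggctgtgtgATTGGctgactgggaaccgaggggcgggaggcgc
Rad51ap1: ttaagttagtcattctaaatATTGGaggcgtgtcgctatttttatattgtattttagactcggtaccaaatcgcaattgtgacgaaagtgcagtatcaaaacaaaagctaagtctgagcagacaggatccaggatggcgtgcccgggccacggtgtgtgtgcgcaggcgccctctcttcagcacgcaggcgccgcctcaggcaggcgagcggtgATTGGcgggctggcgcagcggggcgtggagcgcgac
Rad54l: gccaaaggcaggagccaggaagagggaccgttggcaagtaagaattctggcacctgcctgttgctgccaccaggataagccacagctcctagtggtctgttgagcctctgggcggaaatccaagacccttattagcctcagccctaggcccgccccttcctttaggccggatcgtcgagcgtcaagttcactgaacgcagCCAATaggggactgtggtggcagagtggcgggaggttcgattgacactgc
Chek1: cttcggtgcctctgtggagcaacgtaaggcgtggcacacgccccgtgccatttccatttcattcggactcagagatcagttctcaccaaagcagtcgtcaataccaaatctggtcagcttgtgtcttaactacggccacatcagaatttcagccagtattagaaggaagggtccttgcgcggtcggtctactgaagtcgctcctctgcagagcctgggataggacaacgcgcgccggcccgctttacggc
Brip1 holds 3 CCAAT boxes, Rad51ap1 holds 2 and Rad54l holds 1, whereas the Chek1 window holds none of the motifs searched. The Chek1 gene model of GENCODE M21 starts 157 bases before this window, so the window is upstream of the RefSeq start but not of that one. Which gene model the deposited counts used is not stated. On either strand, CCAAT was in 17 of the 30 member promoters (56.7%), against 34.5% of all 27025 promoters and 36.5% of the 9957 promoters of tested genes. E2F-type sites, searched as TTTCCCGC, TTTGGCGC, TTTCGCGC and TTTGCCGC, were in 4 of 30 (13.3%), those of Fancg, Bard1, Brca2 and Topbp1, against 1.91% of all promoters and 3.4% of those of tested genes. CHR-type sites, searched as TTTGAA and TTCGAA, were in 2 of 30 (6.67%), those of Bard1 and Atr, against 17.4% and 12.7%. These shares describe the letters in the windows and were not tested.

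After platelet depletion, members were higher in CD41- cells. In depleted over control CD41- cells, 6 of 38 members rose (15.8%, against 2.3% of all genes tested), namely Fancd2, Brip1, Rad51ap1, Rbbp8, Exo1 and Eme1, and 0 fell (against 0.892% of all genes). With edgeR, 20 members had an unadjusted p below 0.05 (52.6%, against 16.9% of all genes). Without the shallow depleted CD41+ replicate 1, which enters the shared estimate of spread, 9 rose (against 2.98% of all genes). DESeq2 called 12 higher (against 3.98% of all genes), adding Fanca, Ube2t, Brca1, Brca2, Rad51c and Chek1. The median log2 fold change was 0.73 over the members and -0.03 over all genes tested, and it was positive for 33 members and negative for 5. Libraries of the 2 groups did not overlap, with depleted cells higher, for 20 members (52.6%, against 12.9% of all genes), and did not overlap with depleted cells lower for 0 (against 12.1%).

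In CD41+ cells, depleted over control, 0 of 38 members passed in edgeR in either direction (against 0.0372% of all genes higher and 0.0669% lower), 4 had an unadjusted p below 0.05 (10.5%, against 12.2% of all genes), and DESeq2 called 2 higher, Brca2 and Rbbp8 (against 1.12% of all genes). The count was also 0 without the shallow depleted CD41+ replicate 1. The median log2 fold change was 0.06 over the members and -0.01 over all genes. Depleted libraries were above control libraries without overlap for 6 members (15.8%, against 13.2% of all genes), Ube2t, Brca2, Rad51ap1, Rbbp8, Exo1 and Eme1, and below for 4 (10.5%, against 13.8%), Fance, Fancf, Rad51b and Xrcc2. The share of members that were higher is close to that of all genes. All 6 were also among the 20 that did so in CD41- cells, but the share of all genes that did so in both fractions was not counted.

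Averaged over both fractions, 6 members rose (against 3.6% of all genes), Fancd2, Brca2, Rad51ap1, Rbbp8, Exo1 and Eme1, and 0 fell (against 2.73%), with 16 at an unadjusted p below 0.05 (42.1%, against 21.3% of all genes). The response in CD41+ cells minus that in CD41- cells was negative for 32 members and positive for 6, with a median of -0.58 over the members against 0.00 over all genes, yet no member passed. In edgeR 0 of 13448 genes passed this test in either direction, 8 members (21.1%) and 825 genes (6.13%) had an unadjusted p below 0.05, and DESeq2 called 11 genes higher and 24 lower, none of them a member. A different response of the fractions was therefore not shown for any single member.

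Between fractions of control mice, 2 of 38 members were higher in CD41+ cells, Brip1 and Exo1 (against 1.58% of all genes), and 0 were lower (against 1.04%). With edgeR, 16 members had an unadjusted p below 0.05 (42.1%, against 18.9% of all genes). The count of higher members was 6 without depleted CD41+ replicate 1 (against 2.31% of all genes). It was 1 without control CD41+ replicate 1 (0.7% of all genes), control CD41+ replicate 2 (0.22%) or control CD41- replicate 3 (0.639%). DESeq2 called 11 higher (against 3.9% of all genes), adding Fancg, Fancd2, Rad51c, Xrcc2, Rad51ap1, Rad54l, Top3a, Eme1 and Chek1. The median log2 fold change was 0.69 over the members and -0.03 over all genes. CD41+ libraries were above CD41- libraries without overlap for 20 members (52.6%, against 17.4% of all genes) and below for 4 (10.5%, against 17.5%), Brca2, Rad51d, Slx4 and Atr. This comparison and that of depleted over control CD41- cells share the 3 control CD41- libraries, so a low value there raises both.

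After depletion, CD41+ and CD41- cells were closer. In edgeR 0 members passed in either direction (against 0.0669% of all genes higher and 0.126% lower), 1 had an unadjusted p below 0.05 (2.63%, against 9.18% of all genes) and DESeq2 called 0 (against 0.825% of all genes higher and 0.692% lower). The median log2 fold change was -0.05 over the members and -0.03 over all genes. Fancg, Rad54l and Rbbp8 were higher in CD41+ cells without overlap (7.89%, against 8.35% of all genes) and Fancf, Brca2 and Atr lower (7.89%, against 9.32%), shares near those of all genes. Averaged over both treatments, 2 members were higher in CD41+ cells, Rad54l and Exo1 (against 2.73% of all genes), and 0 were lower (against 2.65%), with 15 at an unadjusted p below 0.05 (39.5%, against 23.1% of all genes). Without depleted CD41+ replicate 1, 3 were higher (against 2.4% of all genes) and Atr was lower (against 2.24%). The count of higher members was 4 without control CD41- replicate 1 (304 of 13335 genes higher). It was 1 without control CD41+ replicate 1 (238 of 14563 genes) or control CD41- replicate 3 (252 of 13304). It was also 1 without depleted CD41- replicate 1 (225 of 13396), 2 (199 of 13351) or 3 (270 of 13362).

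**Figure D3:**
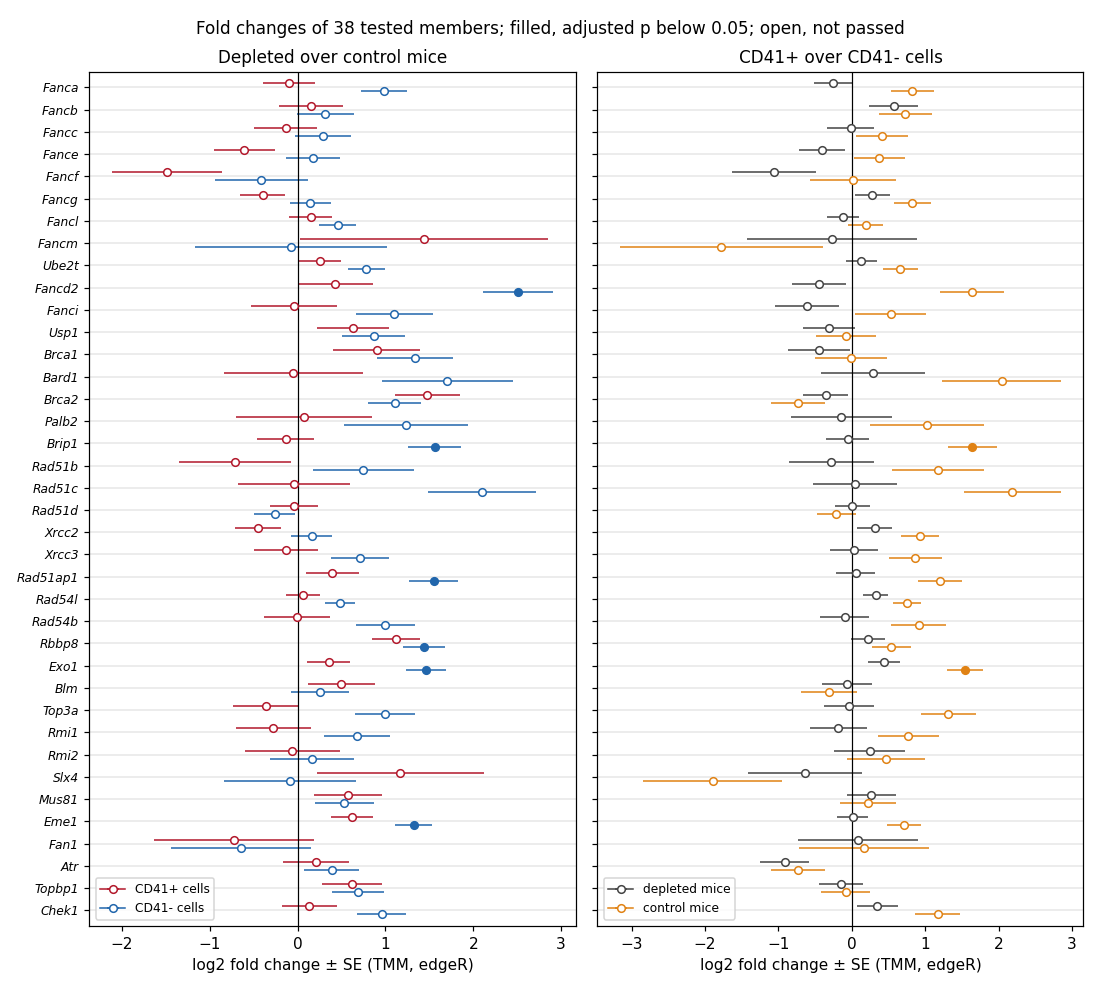
Log2 fold change with standard error of the 38 tested members for depleted over control cells in each fraction (left) and for CD41+ over CD41- cells in each treatment (right), ordered by role, with filled points for an adjusted p below 0.05. In CD41- cells the depletion response is positive for 33 of 38 members, and in CD41+ cells for 20 of 38.

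**Figure D4:**
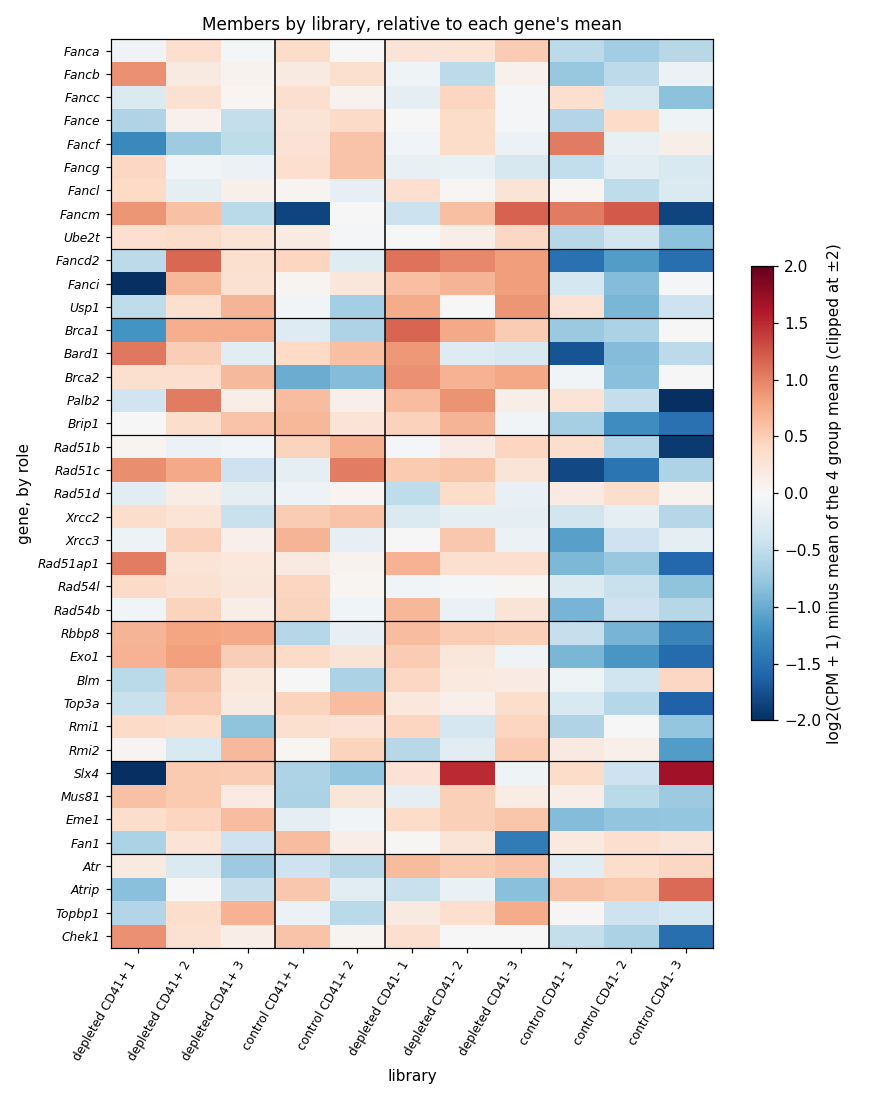
Log2(CPM + 1) of each member in each library, minus the mean of that gene's 4 group means, with 1 column per library and 1 row per gene. By group mean, control CD41- cells are lowest for 26 of the 38 tested members, though for some of these single libraries overlap those of other groups. Fanci, Brca1 and Fancd2 are low in the shallow depleted CD41+ replicate 1.

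Some other genes of the same pathways passed as well. Of 40 further Fanconi anaemia, recombination and checkpoint genes, 3 rose after depletion in CD41- cells (against 2.3% of all genes), among them Rpa1 and Uhrf1. In control mice 4 were higher in CD41+ than in CD41- cells (against 1.58% of all genes), among them Dna2, Tipin and Uhrf1. Their median log2 fold changes were 0.39 and 0.37, against -0.03 over all genes in each comparison, and 0 were lower in either. Uhrf1, which maintains DNA methylation at replication, averaged 231 ± 51.3 CPM in depleted CD41+ cells, 248 ± 55.7 CPM in control CD41+ cells, 244 ± 42.6 CPM in depleted CD41- cells, against 118 ± 36.4 CPM in control CD41- cells. Its response in CD41- cells was log2 1.05 ± 0.24 (edgeR adjusted p = 0.0273). Of 16 genes of end joining, the competing repair route, 0 passed in edgeR in any of the 7 comparisons, and 2 had an unadjusted p below 0.05 for depletion in CD41- cells, where their median log2 fold change was 0.34. Trp53bp1, which opposes resection, was at log2 -0.54 ± 0.27 in CD41+ over CD41- cells of control mice (adjusted p = 0.306), whereas Rif1, its partner in that role, was at 0.53 ± 0.35 (adjusted p = 0.432).

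Proliferation markers moved with the members. Their summed level lay between 6768 and 7897 CPM in depleted CD41+ cells, between 6193 and 6782 CPM in control CD41+ cells, between 6251 and 6894 CPM in depleted CD41- cells, and between 2794 and 3598 CPM in control CD41- cells. Of 17 markers, 14 rose after depletion in CD41- cells (against 2.3% of all genes). In control mice 13 were higher in CD41+ than in CD41- cells (against 1.58% of all genes). The part of cell division in the members' results was not tested.

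Markers of other cells also differed between libraries. Summed neutrophil markers lay between 15205 and 52461 CPM in depleted CD41+ cells, between 24376 and 84412 CPM in control CD41+ cells, between 4443 and 36979 CPM in depleted CD41- cells, and between 8662 and 15098 CPM in control CD41- cells. All 12 had a positive fold change in CD41+ over CD41- cells of control mice and 11 in depleted over control CD41- cells, and 0 passed in either, with 3 and 1 at an unadjusted p below 0.05 in edgeR. Summed endothelial and stromal markers lay between 301 and 528 CPM in depleted CD41+ cells, between 188 and 329 CPM in control CD41+ cells, between 73.0 and 370 CPM in depleted CD41- cells, and between 79.2 and 114 CPM in control CD41- cells, with Ibsp and Kitl at 0 in control CD41- cells; these 2 of 9 markers tested passed in CD41+ over CD41- cells of control mice. For that comparison 5 of 10 tested megakaryocyte markers, 1 of 10 erythroid markers and 1 of 8 tested lymphoid markers passed as higher (against 1.58% of all genes). The median log2 fold change was 1.62 for erythroid and 1.61 for macrophage and monocyte markers. For depleted over control CD41- cells all 10 macrophage and monocyte markers had a positive fold change (median log2 0.85, 0 passed, 2 at an unadjusted p below 0.05), and of the 11 sort and stem cell markers 8 were negative, with Hlf passing as lower. In the same comparison 9 of 10 tested megakaryocyte markers were negative (median log2 -1.26), with 2 passing as lower (against 0.892% of all genes). Of 8 tested lymphoid markers 5 were negative and 0 passed. Their part in the members' results was not tested.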

How the data were processed

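Libraries were made with oligo-dT priming and template switching, with 17 cDNA and 12 index PCR cycles, per the labels' protocols. The authors deposited raw counts per gene. Per the submitters' processing notes, reads were handled with cutadapt, STAR and HTSeq 0.6.1p1 on GRCm38 (mm10); roles, strand setting and annotation release are not stated there. PCR copies were not collapsed by molecular identifiers as far as the sources state, so depth limits cover counting error only.

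From these counts, symbols and exon lengths were taken from GENCODE M21; 259 of 49585 rows had no symbol. Genes passing edgeR's filter (minimum count 10, minimum total 15) were fitted with edgeR 4.0.16 in R 4.3.3, with TMM scaling and 1 coefficient for each of the 4 groups, and tested with the robust quasi-likelihood test. Benjamini-Hochberg adjustment ran over all 13448 genes, with a threshold of 0.05. Levels are CPM on TMM-scaled library sizes. The ± beside a log2 fold change is its standard error, and beside a CPM mean its SD. P-values measure the spread between pools. In simulated counts for 13448 genes, 13.4% of genes changed 2-fold and 61.4% of genes changed 4-fold were recovered for depleted over control CD41- cells, and 7.46% and 46.2% for CD41+ cells. For CD41+ over CD41- cells, 12.7% and 54.5% were recovered in control mice, and 24.6% and 64.4% in depleted mice. The false share of the calls was 6.42%, 6.49%, 7.29% and 5.47% in these 4 comparisons, in the same order, each above the threshold of 0.05. Each comparison had 2 simulations.

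The members and lists were chosen with earlier results of these data known. The 13 members given by library were, in each role, those with the lowest p for CD41+ over CD41- cells of control mice and for the averaged depletion response (mean of at least 5 CPM), plus the 3 highest per kb. Fanci, Brca1, Atr, Rpa1 and Dna2 were added after their values were seen. Alternatives were DESeq2 1.42.0, other scalings, no filter, fewer groups, a replicate block and leaving out each library. Results for 1 comparison gene are not reported here.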

Additional observations from a re-analysis of the deposited data

How the results depend on the processing

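No call of a named member changed direction under any alternative run. Of the 16 calls of named members, Fancd2 (CD41- cells), Brca2, Exo1, Rbbp8, Eme1 and Rad51ap1 (CD41- cells) passed throughout, and the lost calls of Brip1, Fancd2, Rad51ap1 and Rad54l stand beside their values above. Counts of members moved more, and the cause was not tested. For CD41+ over CD41- cells of control mice the count of 2 became 9 with no filter on low counts (701 of 25098 genes higher). It became 11 with DESeq2 (525 of 13448) and 1 when only the groups compared were fitted (88 of 12613). Before these changes 212 of 13448 genes were higher. Leaving out 1 library gave 1 to 6, with 1 without control CD41+ replicate 1 or 2 or control CD41- replicate 3. The 6 came without depleted CD41+ replicate 1. For the average over both treatments the count of 2 became 5 with RLE scaling (412 of 13448 genes higher) and 5 with no filter (901 of 25098). DESeq2 gave 8, with 7 higher and Atr lower (775 genes higher and 666 lower of 13448). Leaving out 1 library gave 1 to 4, for the libraries named with that result above. For depleted over control CD41- cells the count of 6 became 11 with no filter and 12 with DESeq2, and leaving out 1 library gave 5 to 9. The 5 came without control CD41- replicate 3 (166 of 13304 genes higher) or depleted CD41- replicate 1 (146 of 13396) or 2 (199 of 13351). The 9 came without depleted CD41+ replicate 1 (398 of 13348). In CD41+ cells the count became 1 with no filter (Rbbp8, with 174 of 25098 genes higher) and 2 with DESeq2 (150 of 13448 genes higher). Averaged over both fractions the count of 6 became 10 with no filter (818 of 25098 genes higher) and 10 with DESeq2 (809 of 13448). Before these changes 484 of 13448 genes were higher. Leaving out 1 library of another group than control CD41+ gave 6 to 9 members. The 9 came without depleted CD41+ replicate 1 (612 of 13348 genes higher), and the count was 6 without depleted CD41- replicate 3 (220 of 13362). Fewer were called without a control CD41+ library, a fit that leaves 1 library in that group. For depleted over control CD41- cells 2.45% of all genes were called higher with no filter and 3.98% with DESeq2, against 2.3%. For the difference of responses, no filter gave 2 lower (Fancd2 and Brip1), among 139 of 25098 genes lower. With library size as the only scaling, the median of all genes for CD41+ over CD41- cells of control mice moved from -0.03 to -0.15, and that of the members was 0.57.

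The labels number the samples but state no pairing of fractions. A replicate block on consecutive numbers gave 2 members called for CD41+ over CD41- cells of control mice, 0 for depleted mice, 3 for their average and 0 for the difference of responses; over all genes it gave 158 calls in depleted mice against 26 without the block. The correlation of deviations within such pairs was 0.111 and 0.0922 in control mice and 0.312, 0.446 and 0.274 in depleted mice. Atrip, Fan1, Fancm, Bard1, Fancf and Slx4 had the fewest counts (43 to 276 over all libraries), and the 2 control CD41+ libraries limit every comparison that uses them.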

Other observations

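The shallowest library had members at both ends of its group. In depleted CD41+ replicate 1, Fanci (7.79 CPM), Brca1 (5.56 CPM) and Fancd2 (11.1 CPM) were the lowest of their group, whereas Rad51ap1 (93.4 CPM), Chek1 (127 CPM) and Fancl (81.2 CPM) were the highest. These genes were chosen after their values were seen.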
